A study of Homo sapiens with 4 samples.

Results

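The long noncoding RNAs MALAT1, NEAT1, GAS5, H19, MEG3 and TUG1 were examined in MDA-MB-361 cells, an established human HER2+ breast cancer line, on Affymetrix U133 Plus 2.0 arrays. A probe set, the group of short probes that reads 1 transcript region, was taken for a gene only where the platform annotation lists no other gene. This gave 29 probe sets of 54613 without controls: 12 for MALAT1, 10 for MEG3, 6 for TUG1 and 1 for GAS5. NEAT1 and H19 had 0 such probe sets. The 9 probe sets that list NEAT1 also list MIR612, the 2 that list H19 also list MIR675, and 4 more that list GAS5 also list 8 snoRNA genes, so these 15 were assigned to no gene. The derivatives IBC-I, IBC-II and IBC-III (1 array each) express an shRNA against a different region of DCD from the lentiviral pLKO-puro construct and are labelled as clones 1, 2 and 3, and the control (1 array) carries the pLKO vector without it. No hairpin and no control was repeated, so p-values measure only the spread among these arrays, which mixes hairpin, clone and technical differences. All 3 comparisons share the pLKO array.

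Long noncoding RNAs act without being translated, and many of the abundant ones stay in the nucleus. MALAT1 is retained in nuclear speckles, bodies rich in splicing factors, and NEAT1 is the scaffold of paraspeckles, which hold RNA-binding proteins. GAS5 hosts snoRNAs in its introns and carries a terminal oligopyrimidine (TOP) start like the mRNAs of the translation machinery, and its spliced RNA is removed by nonsense-mediated decay. H19 and MEG3 are imprinted, and TUG1 is widely expressed and has been described as a partner of Polycomb repressive complex 2.

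RefSeq promoter windows on GRCh38.p14, from 250 bases before to 50 bases after a start, are shown for the RNAs whose levels could be tested in several probe sets, because the starts of MALAT1 differ in their letters. The letters TATAAA or CCAAT on either strand are in capitals where present, and CCAAT on the other strand reads ATTGG. They were searched on both strands, and the motifs do not overlap each other in these windows. Both MALAT1 windows lie on the plus strand of chromosome 11, at chr11:65497488-65497787 and chr11:65498795-65499094, and the TUG1 window on the plus strand of chromosome 22, at chr22:30969015-30969314.
MALAT1 upstream start: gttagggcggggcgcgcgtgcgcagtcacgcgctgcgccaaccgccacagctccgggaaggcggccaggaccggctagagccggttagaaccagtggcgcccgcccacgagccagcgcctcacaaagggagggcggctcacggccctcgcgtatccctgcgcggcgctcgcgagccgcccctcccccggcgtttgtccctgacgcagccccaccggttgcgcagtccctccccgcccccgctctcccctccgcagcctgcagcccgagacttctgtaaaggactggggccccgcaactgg
MALAT1 downstream start: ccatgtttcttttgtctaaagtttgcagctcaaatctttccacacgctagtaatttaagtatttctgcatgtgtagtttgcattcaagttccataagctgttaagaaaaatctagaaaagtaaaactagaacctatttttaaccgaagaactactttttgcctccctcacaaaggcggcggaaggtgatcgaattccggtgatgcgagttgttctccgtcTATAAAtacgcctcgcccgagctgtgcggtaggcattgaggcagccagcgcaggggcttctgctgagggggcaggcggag
TUG1: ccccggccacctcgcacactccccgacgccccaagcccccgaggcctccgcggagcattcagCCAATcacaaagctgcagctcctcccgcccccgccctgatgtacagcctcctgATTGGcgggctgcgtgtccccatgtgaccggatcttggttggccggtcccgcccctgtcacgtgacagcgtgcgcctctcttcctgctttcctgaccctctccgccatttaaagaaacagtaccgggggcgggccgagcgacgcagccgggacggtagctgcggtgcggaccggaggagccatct
The window of the upstream MALAT1 start has a GC content of 73.7% and neither motif. That of the downstream start has 46.0% GC and holds TATAAA at -30 from the start. The TUG1 window has 67.7% GC and holds CCAAT at -188 and, as ATTGG, at -135. Over 35116 windows of the same length, 11.5% hold TATAAA and 34.6% hold CCAAT, and the median GC content is 58.7%. A match is a description of the letters and not a site in use.

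The median deposited intensity was 20 (IBC-I), 24.7 (IBC-II) and 13.4 (IBC-III), against 20.6 in pLKO. The arrays were therefore brought to 1 distribution (quantile normalization), values under 16 were raised to 16, and differences were taken on log2. DCD itself read 7 (IBC-I), 6 (IBC-II) and 2.7 (IBC-III), against 2 in pLKO, all under that floor, so the arrays do not check the knockdown. The ACTB controls at the 3' and the 5' end of the transcript had a ratio, which rises with degraded RNA or incomplete labelling, of 9.67 (IBC-I), 2.58 (IBC-II) and 42.6 (IBC-III), against 5.29 in pLKO. For GAPDH it was 2.18 (IBC-I), 1.02 (IBC-II) and 13.1 (IBC-III), against 1.09 in pLKO. All 12 luminal epithelial markers were tested. Their summed intensity was 33931 (IBC-I), 51076 (IBC-II) and 13988 (IBC-III), against 35605 in pLKO, and the median log2 difference was 0.28 (IBC-I), 0.54 (IBC-II) and -1.11 (IBC-III), with that of IBC-I at -0.45 as deposited. Of 14 stromal and immune markers 12 were named on the array and 5 were tested, with summed intensities of 337.9 (IBC-I), 456.8 (IBC-II) and 309 (IBC-III), against 343.7 in pLKO. COL1A1 held 199.9, 253.9 and 212.3 of these in IBC-I, IBC-II and IBC-III, and 228.2 in pLKO. The arrays hold bulk RNA of derivatives of 1 cell line, so these markers do not count cell types. Fewer cells that express a marker and less of its RNA per cell cannot be told apart.

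MALAT1 was higher than control pLKO in 12 of 12 probe sets in IBC-I and in 12 of 12 in IBC-III, and in 5 of 12 in IBC-II. The shares of all 27307 tested probe sets that were higher were 49.3% in IBC-I, 49.1% in IBC-III and 49.8% in IBC-II. The median log2 difference of MALAT1 was 1.18 (IBC-I), -0.13 (IBC-II) and 2.32 (IBC-III), where the median over all tested probe sets was 0 (IBC-I), 0 (IBC-II) and 0.00 (IBC-III). As folds, MALAT1 was thus 2.27-fold (IBC-I) and 4.98-fold (IBC-III) higher and 1.09-fold lower (IBC-II) at the median. The 12 probe sets read the same RNA and are not replicates of a condition.

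In IBC-III, 10 of the 12 MALAT1 probe sets were at least 3-fold higher than pLKO, where 8.76% of all tested probe sets reached that size. In IBC-I 1 of 12 did (all tested probe sets: 1.76%), and in IBC-II 0 of 12 did (0.571%). The arrays therefore stood in the order IBC-III, IBC-I and then IBC-II with pLKO, and with 1 array each the spread that would separate IBC-II from pLKO was not measured. The 2 arrays with higher MALAT1 are also those whose ACTB and GAPDH 3' to 5' ratios exceeded those of pLKO, and IBC-III, with the highest ratios, had the lowest luminal marker median on each scale. The part of RNA quality in the MALAT1 result was not tested.

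**Figure D1:**
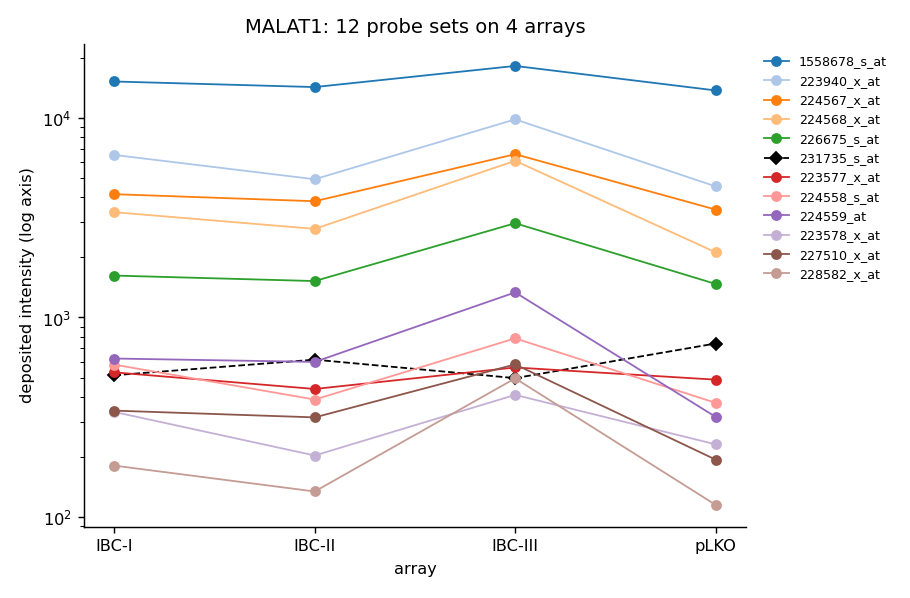
Deposited intensity (log axis) of the 12 MALAT1 probe sets on the arrays of IBC-I, IBC-II, IBC-III and pLKO, 1 line per probe set, with 231735_s_at dashed. In IBC-III, 11 of the 12 lie above pLKO, and 231735_s_at reads 496.9 there against 740.7 in pLKO.

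Of the MALAT1 probe sets, 1 (224559_at) has a name without the _s or _x mark, 4 carry _s, which is given to probes shared by several transcripts, and 7 carry _x, which is given to probes that may bind other sequences. The intensity of 224559_at was 622.9 (IBC-I), 599 (IBC-II) and 1335.7 (IBC-III), against 317.9 in pLKO. All 3 shRNA arrays lay above the control, and IBC-III lay farthest. After normalization the log2 differences were 1.64, 0.48 and 3.51, which are 3.13-fold, 1.40-fold and 11.4-fold, with a mean of 1.88 ± 1.53 (SD, n = 3 hairpins). limma, fitted to all 27307 probe sets, gave an unadjusted p of 0.121 and an adjusted p of 1 for it.

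The probe set 227510_x_at read 341.5 (IBC-I), 315.9 (IBC-II) and 581.9 (IBC-III), against 194.1 in pLKO, with log2 differences of 1.43, 0.27 and 3.04. For 224568_x_at the intensities were 3368.3 (IBC-I), 2778.3 (IBC-II) and 6092.6 (IBC-III), against 2121.4 in pLKO, and the log2 differences were 1.36, 0.05 and 2.58. These 2 and 224559_at were the 3 MALAT1 probe sets of 12 that were higher on all 3 shRNA arrays on every scale used: quantile normalized, median centred and as deposited. The share of all tested probe sets that did so on every scale at once was not computed. On single scales it was 19.4% (quantile normalized), 14% (median centred) and 10.3% (as deposited). The difference of 224568_x_at in IBC-II was small beside its spread across hairpins (SD 1.27).

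For 228582_x_at the intensities were 181.1 (IBC-I), 134.4 (IBC-II) and 495.5 (IBC-III), against 115.2 in pLKO. Its difference in IBC-III (3.53 on log2, 11.5-fold) was the largest of the 12, and IBC-II was within 0.12 of pLKO on the other side (-0.12). For 223940_x_at they were 6519.3 (IBC-I), 4925 (IBC-II) and 9827.5 (IBC-III), against 4536.7 in pLKO. Normalized, it was 1.25 and 1.86 higher on log2 in IBC-I and IBC-III and 0.01 higher in IBC-II. The same order of arrays was seen in 224567_x_at (log2 differences of 0.94, -0.13 and 1.95 for IBC-I, IBC-II and IBC-III), 224558_s_at (1.31, -0.36 and 2.58), 226675_s_at (0.88, -0.31 and 2.42), 223578_x_at (1.16, -0.57 and 2.21) and 223577_x_at (0.80, -0.57 and 1.70).

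The remaining 2 MALAT1 probe sets had the smallest mean differences. The probe set 1558678_s_at had an intensity of 15207.8 (IBC-I), 14261.4 (IBC-II) and 18198.9 (IBC-III), against 13718 in pLKO. It held the highest value of each shRNA array, so quantile normalization gave it the same 15518 on all of them, against 13102 in pLKO, and its log2 difference of 0.24 in each comparison has an SD of 0 by construction. As deposited its differences were 0.15 (IBC-I), 0.06 (IBC-II) and 0.41 (IBC-III) on log2, so its normalized values carry no order among the hairpins.

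In 231735_s_at the intensity was 513.7 (IBC-I), 614.8 (IBC-II) and 496.9 (IBC-III), against 740.7 in pLKO. It was the 1 MALAT1 probe set that lay below the control on every shRNA array as deposited, while the normalized log2 differences were 0.19 (IBC-I), -0.67 (IBC-II) and 0.96 (IBC-III). The ratio of its deposited intensity to the median of the other 11 MALAT1 probe sets was 0.825 (IBC-I), 1.03 (IBC-II) and 0.372 (IBC-III), against 1.52 in pLKO. A ratio within an array does not depend on the scaling between arrays, and it shows that the MALAT1 probe sets changed unequally. Its lowest value stood in IBC-III, where the ACTB and GAPDH ratios were highest, and where the probes of this set lie along MALAT1 was not analysed here.

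**Figure D2:**
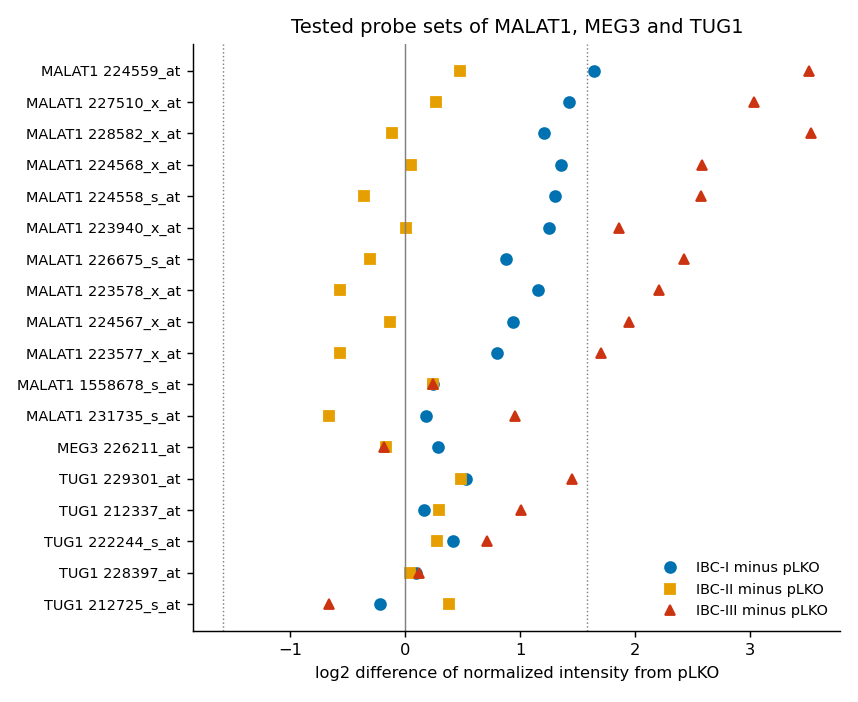
Log2 difference of normalized intensity from pLKO for the 18 tested probe sets of MALAT1, MEG3 and TUG1, with a circle for IBC-I, a square for IBC-II and a triangle for IBC-III, and dotted lines at 3-fold in either direction. In 10 of the 12 MALAT1 rows the IBC-III triangle lies beyond 3-fold, and no square does.

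The size of the MALAT1 differences depended on the scale, and their direction in IBC-I and IBC-III did so in 231735_s_at. As deposited, 11 of 12 were higher (IBC-I), 9 (IBC-II) and 11 (IBC-III), with medians of 0.53, 0.09 and 1.04 on log2. The medians over all tested probe sets on that scale were -0.36 (IBC-I), 0.34 (IBC-II) and -0.89 (IBC-III), and 30.7%, 71.2% and 20.7% of them were higher. Relative to those shifts, MALAT1 lay above the other probe sets in IBC-I and IBC-III and below them in IBC-II. With the log2 values centred on each array's median, 11 of 12 were higher (IBC-I), 3 (IBC-II) and 12 (IBC-III), with medians of 0.57, -0.17 and 1.66, where those of all tested probe sets were -0.32, 0.08 and -0.35. Of all tested probe sets 32.5% (IBC-I), 55.5% (IBC-II) and 37.9% (IBC-III) were higher on that scale.

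**Figure D3:**
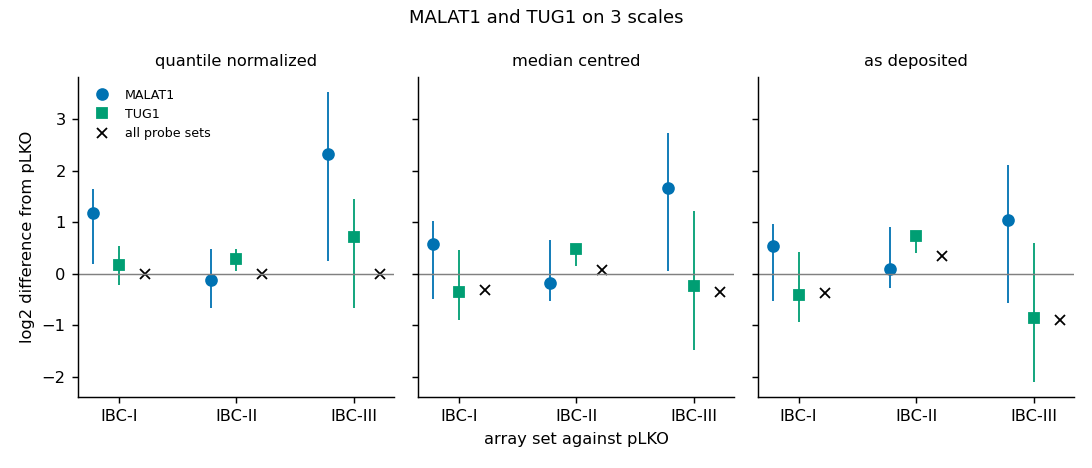
Median log2 difference from pLKO (points) and the range over probe sets (vertical lines) of MALAT1 (12 probe sets) and TUG1 (5), with a cross for the median of all 27307 tested probe sets, in IBC-I, IBC-II and IBC-III on 3 scales. MALAT1 in IBC-III has a median of 2.32, 1.66 and 1.04 from left to right, and the TUG1 medians of IBC-I and IBC-III change sign between the normalized and the deposited values.

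TUG1 showed smaller normalized differences than 3-fold in every tested probe set and comparison. Of its 5 tested probe sets, 4 were higher than pLKO (IBC-I), 5 (IBC-II) and 4 (IBC-III), with median log2 differences of 0.17, 0.29 and 0.71. These directions rest on the scaling: as deposited 1 of 5 was higher (IBC-I), 5 (IBC-II) and 1 (IBC-III), with medians of -0.41, 0.73 and -0.87, and after median centring 1, 5 and 2 were higher. Only in IBC-II were all 5 higher on each of the 3 scales. Of all tested probe sets 49.8% (quantile normalized), 55.5% (median centred) and 71.2% (as deposited) were higher there.

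The TUG1 probe set 222244_s_at had an intensity of 1540.3 (IBC-I), 3002.3 (IBC-II) and 1074.2 (IBC-III), against 1960.8 in pLKO. Its normalized log2 differences were 0.42, 0.28 and 0.71, with a mean of 0.47 ± 0.22 (SD, n = 3). In 212725_s_at the intensity was 389.1 (IBC-I), 1300.4 (IBC-II) and 173.2 (IBC-III), against 744.9 in pLKO, and the log2 differences were -0.21, 0.39 and -0.67. After normalization the pair parted in IBC-I and IBC-III, where 1 was higher and the other lower than the control. As deposited and after median centring both were lower there, with deposited log2 differences of -0.35 and -0.87 in 222244_s_at and of -0.94 and -2.10 in 212725_s_at. The ratio of 212725_s_at to 222244_s_at, which is free of the scaling between arrays, was 0.253 (IBC-I), 0.433 (IBC-II) and 0.161 (IBC-III), against 0.380 in pLKO.

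For 212337_at the intensities were 209.8 (IBC-I), 475.8 (IBC-II) and 217.3 (IBC-III), against 286 in pLKO, with log2 differences of 0.17, 0.29 and 1.00. For 228397_at they were 87.2 (IBC-I), 153.5 (IBC-II) and 55.6 (IBC-III), against 115.6 in pLKO, with differences of 0.10, 0.05 and 0.12. Both were above pLKO on all 3 shRNA arrays after normalization and in IBC-II alone as deposited. The dim 229301_at read 33.4 (IBC-I), 43.8 (IBC-II) and 37.7 (IBC-III), against 24.9 in pLKO, and was the 1 TUG1 probe set higher on all 3 arrays on every scale (normalized log2 differences of 0.53, 0.49 and 1.45). The share of all tested probe sets higher on every scale at once was not computed. The sixth, 230635_at, read between 1.3 and 5.2 on the 4 arrays, under the floor on all of them, and was not tested.

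MEG3 was near or under the floor throughout. Of its 10 probe sets 1 passed the filter on dim probe sets. This one, 226211_at, read 35.1 (IBC-I), 34 (IBC-II) and 17.5 (IBC-III), against 31.7 in pLKO, with normalized log2 differences of 0.29, -0.17 and -0.19. The hairpins did not share a direction, and the mean difference was -0.02 ± 0.27 (SD, n = 3). The other 9 read between 1.7 and 27.2 over the 4 arrays. Among them 227390_at read 22.1 (IBC-I), 16.8 (IBC-II) and 8.8 (IBC-III), against 26.5 in pLKO. For 242246_x_at the values were 19.6 (IBC-I), 24 (IBC-II) and 15.7 (IBC-III), against 25.1 in pLKO. These 2 lay below the control on every array and scale, with the deposited IBC-III values under the floor. The share of all probe sets that did so was not computed.

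GAS5 was read by 1560402_at at 8.3 (IBC-I), 20.1 (IBC-II) and 21.1 (IBC-III), against 21.2 in pLKO. After normalization the values were 16, 16 and 31.3 in the same arrays, against 19.8 in pLKO, with IBC-I and IBC-II at the floor. The probe set did not pass the filter, so GAS5 was not tested, and a difference was not measurable at this signal. Levels of NEAT1 and H19 are not given here for want of a probe set of their own.

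**Figure D4:**
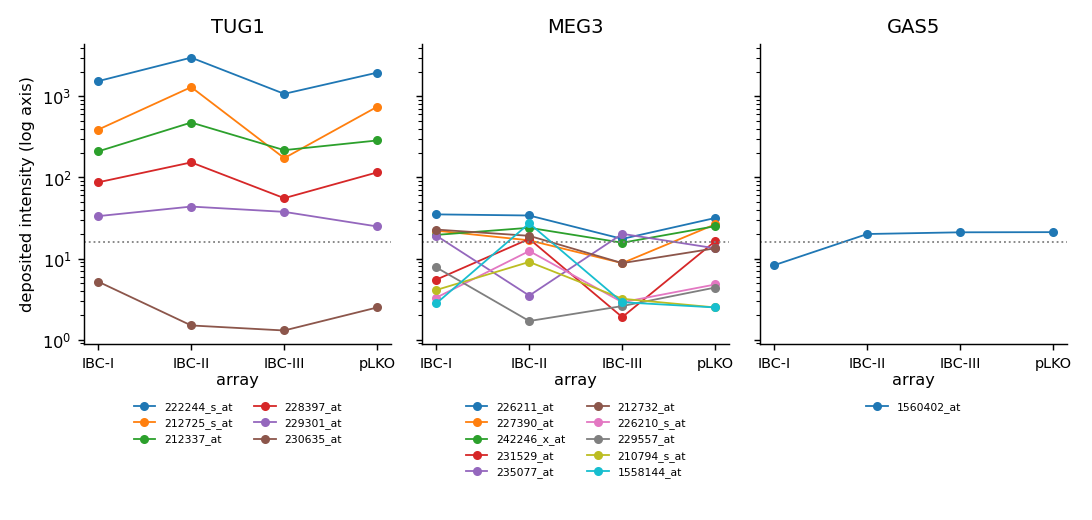
Deposited intensity (log axis) of each TUG1 (6), MEG3 (10) and GAS5 (1) probe set on the arrays of IBC-I, IBC-II, IBC-III and pLKO, 1 line per probe set, with the floor of 16 dotted. TUG1 222244_s_at runs between 1074.2 and 3002.3, while the MEG3 and GAS5 probe sets lie near or under the floor.

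Across the 18 tested probe sets of MALAT1, TUG1 and MEG3, 9 were higher than pLKO in all 3 comparisons (5 of MALAT1 and 4 of TUG1), where 19.4% of all tested probe sets were, and 0 were lower in all 3, where 20% were. The 18 share 3 RNAs. After median centring 4 of them were higher in all 3, where 14% of all tested probe sets were. As deposited 10 of them were, where 10.3% of all were. With at least 3-fold asked of every comparison, 0 of the 18 were called in either direction, while it called 0.0366% of all tested probe sets as higher and 0.176% as lower. limma with Benjamini-Hochberg adjustment called 0 of the 18 and 0% of all tested probe sets, and at an unadjusted p under 0.05 it called 0 of the 18 and 204 (0.747%) of all. The unadjusted p of the members ran between 0.121 and 0.975. The methods' paired test of the 3 differences also called 0 of the 18 before and after adjustment (smallest unadjusted p 0.0625), and 2322 of all tested probe sets (8.5%) before it. For 1558678_s_at it could not be computed, since the 3 differences are identical. A p that misses the threshold does not show that MALAT1 was unchanged: the spread it is set against includes the distance of IBC-II from IBC-III.

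By their 3 log2 differences, the named probe sets nearest to MALAT1 1558678_s_at were those of COX5B (Euclidean distance 0.019), a respiratory chain subunit, TMED8 (0.0264) and LOC105373418 (0.0464), all with differences near 0.24. Since normalization set the 3 differences of 1558678_s_at to 1 value, these neighbours describe that value and not the course of the other MALAT1 probe sets. Nearest to TUG1 222244_s_at were KLHL28 (0.0549), USP49 (0.0637), a deubiquitinase, and UBTF (0.0685), a factor of ribosomal RNA transcription. Nearest to MEG3 226211_at were IGSF3 (0.0348), CNOT2 (0.0369), a subunit of the deadenylase complex that shortens mRNA tails, and THAP6 (0.0476). Each likeness is over 3 comparisons that share the pLKO array.

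Gene lists around the roles of these RNAs were described by the same differences, with 1 probe set per gene. Over all 12728 tested genes, 21.3% lay below and 18.8% above pLKO each time, the medians were 0.01 (IBC-I), 0 (IBC-II) and -0.11 (IBC-III), and limma called 0 genes of any list after adjustment. Other scales move all genes: as deposited the medians over all tested genes were -0.42, 0.35 and -1.07 and 2599 genes lay below pLKO each time, and after median centring the medians were -0.37, 0.09 and -0.53 and 3461 genes did. Before adjustment, 1 gene of all the lists had a p under 0.05: GATA3, which specifies luminal cells, with 3459.7 (IBC-I), 3990 (IBC-II) and 3698.1 (IBC-III), against 1239.1 in pLKO (unadjusted p 0.0241, adjusted p 1). Over all tested probe sets 0.747% had such a p. Of the 12 luminal markers 4 were higher in all 3 comparisons and 8 were mixed. As deposited 1 was higher and 1 lower in all 3, and after median centring 2 were higher and 1 lower. TFF1, a secreted estrogen-regulated peptide, differed by 0.18, -0.64 and -2.88, CDH1, the epithelial cadherin, by 0.57, 0.54 and -1.15, and KRT18, a luminal keratin, by 0.96, 0.53 and 0.92. The direction turned as deposited for TFF1 (-0.43) and CDH1 (-0.20) in IBC-I and for KRT18 (-0.18) in IBC-III. Of the stromal and immune markers, PECAM1, an endothelial adhesion protein, differed by -0.51, -0.35 and -1.13 and COL1A2, a collagen chain, by 1.29, 0.42 and 0.68. In IBC-III COL1A2 was below pLKO as deposited (-0.06). DCN, a matrix proteoglycan, read 27.7 (IBC-I), 51.4 (IBC-II) and 22.5 (IBC-III), against 5.8 in pLKO.

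The mRNAs of nuclear speckle and SR proteins, which share the compartment of MALAT1, had medians of 0.24 (IBC-I), -0.20 (IBC-II) and 1.09 (IBC-III) over 22 genes, with 7 higher and 4 lower in all 3 comparisons. SRRM2, a speckle scaffold, read 1187.8 (IBC-I), 944.4 (IBC-II) and 2527.1 (IBC-III), against 972.9 in pLKO, with log2 differences of 1.03, -0.46 and 2.77. SRSF1, a splicing factor, differed by 1.28, -0.18 and 1.47, TRA2B, a splicing regulator, by 0.23, -0.22 and 1.36, and RNPS1, a splicing activator, by 0.16, -0.32 and 0.35. All 4 had IBC-III highest and IBC-II below the control after normalization, which is also the order of arrays in most MALAT1 probe sets. As deposited SRRM2 kept this order, and the other named genes did not. Most MALAT1 probe sets did not keep it either, since 9 of 12 were above pLKO in IBC-II as deposited. The deposited IBC-III differences of SRSF1, TRA2B and RNPS1 were -0.09, -0.20 and -1.25, and those of IBC-II were 0.24, 0.20 and 0.04. The list's medians as deposited were -0.37 (IBC-I), 0.22 (IBC-II) and -0.28 (IBC-III), and after median centring -0.33, -0.04 and 0.34. Set beside the medians over all genes on each of these scales, the IBC-III median of the list was the higher one and that of IBC-II the lower one.

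Among 28 paraspeckle protein genes, 3 were higher and 5 lower in all 3 comparisons, with medians of -0.09, -0.17 and 0.00 in IBC-I, IBC-II and IBC-III. HNRNPH1, a splicing regulator, differed by -1.70, -0.33 and -2.08, while NONO, a core paraspeckle protein, differed by -0.14, -0.15 and 0.07, HNRNPK by 0.10, -0.12 and -0.49, and SMARCA4, a chromatin remodeller, by 0.16, -0.44 and 0.45. Signs of all 4 turned as deposited. HNRNPH1 (0.03), NONO (0.23) and HNRNPK (0.26) were then above pLKO in IBC-II. HNRNPK (-0.69) and SMARCA4 (-0.57) were then below it in IBC-I, and NONO (-1.52) and SMARCA4 (-1.01) in IBC-III. As deposited the medians were -0.68, 0.24 and -1.47, and after median centring -0.64, -0.02 and -0.85.

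The TOP mRNAs of translation factors, whose start type GAS5 shares, were lower than pLKO in all 3 comparisons in 12 of 17 genes and higher in 2, with medians of -0.42 (IBC-I), -0.32 (IBC-II) and -0.60 (IBC-III). The medians kept this sign as deposited (-0.98, -0.08 and -1.89) and after median centring (-0.93, -0.35 and -1.27), with 10 and 14 of 17 lower in all 3, and on every scale they lay below the medians over all genes. EEF1A1, which delivers aminoacyl-tRNA to the ribosome, read 9172.3 (IBC-I), 13031.2 (IBC-II) and 4859.2 (IBC-III), against 14062.4 in pLKO (log2 differences of -0.47, -0.15 and -0.79). TPT1, the translationally controlled tumour protein, differed by -0.19, -0.26 and -0.17, PABPC1, the poly(A)-binding protein, by -0.06, -0.61 and 0.52, and EEF1D, an elongation factor subunit, by 0.44, 0.21 and 1.37. As deposited the direction turned for EEF1D in IBC-I (-0.28) and for PABPC1 in IBC-III (-0.92).

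**Figure D5:**
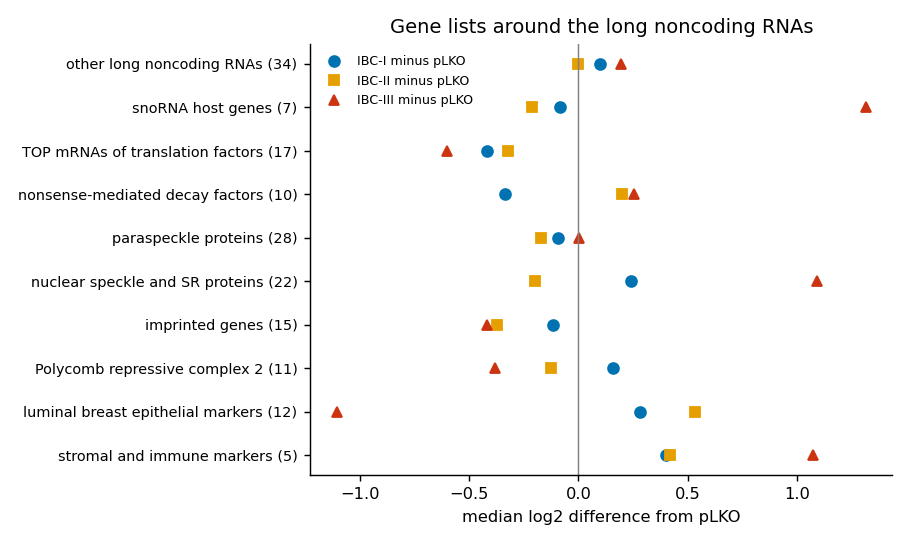
Median log2 difference of normalized intensity from pLKO for each gene list (number of tested genes in brackets), with a circle for IBC-I, a square for IBC-II and a triangle for IBC-III. The TOP mRNAs are the list with all 3 medians under -0.3. The nuclear speckle, snoRNA host and stromal and immune lists have IBC-III medians of 1.09, 1.31 and 1.07.

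Of the snoRNA host genes, the class GAS5 belongs to, 7 were tested, with 2 higher and 1 lower in all 3 comparisons and medians of -0.09 (IBC-I), -0.21 (IBC-II) and 1.31 (IBC-III). As deposited the medians were -0.68, 0.06 and -0.05. ZFAS1 read 512.3 (IBC-I), 953.8 (IBC-II) and 489.5 (IBC-III), against 1803.9 in pLKO, and was lower in all 3 (-1.03, -1.27 and -0.28). DANCR differed by -0.19, -0.48 and 1.78, SNHG19 by -0.50, -1.05 and 2.16, and CCAR1, a protein-coding host, by 0.57, 0.25 and 2.01. Of 10 nonsense-mediated decay factors, which act on spliced GAS5, 4 were higher and 0 lower in all 3, with medians of -0.34, 0.20 and 0.25. As deposited 2 were higher in all 3, with medians of -0.68, 0.57 and -0.86. UPF1, the central helicase, differed by 0.78, 0.49 and 0.01 and RBM8A, of the exon junction complex, by 0.80, 0.23 and 1.20, while EIF4A3, of the same complex, differed by -0.71, 0.12 and -1.08. SMG8, a kinase regulator, read 150.2 (IBC-I), 689.1 (IBC-II) and 49.6 (IBC-III), against 454.9 in pLKO. As deposited, UPF1 and RBM8A were below pLKO in IBC-III (-1.07 and -0.19).

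Of 34 other long noncoding RNAs, 10 were higher and 6 lower in all 3 comparisons, with medians of 0.10, 0 and 0.19 (as deposited -0.21, 0.26 and -0.60). NORAD, a cytoplasmic RNA that binds PUMILIO proteins, read 1025 (IBC-I), 4333.2 (IBC-II) and 208.1 (IBC-III), against 2756.3 in pLKO, with log2 differences of -0.62, 0.44 and -2.20. After normalization its order of arrays was the reverse of that of most MALAT1 probe sets. CRNDE differed by 0, -0.14 and 0.02, OIP5-AS1 by -0.20, -0.40 and -0.42 and FGD5-AS1 by 0.13, -0.34 and -0.51.

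Among 15 imprinted genes, the class of H19 and MEG3, 1 was higher and 6 were lower in all 3 comparisons, with medians of -0.12, -0.37 and -0.42. GNAS, a G protein subunit, differed by 0.94, 0.21 and 1.06, BLCAP by -0.12, 0.08 and -0.06, IGF2R, which clears IGF2, by -0.12, -0.37 and -0.61, and MEST by 0.38, -0.42 and -1.56. The sign turned as deposited for GNAS in IBC-III (-0.15), for IGF2R in IBC-II (0.04) and for MEST in IBC-I (-0.28). On that scale 0 of the 15 were higher and 7 lower in all 3, with medians of -0.52, -0.004 and -1.42. Of 11 genes of Polycomb repressive complex 2 and its partners, 2 were higher and 2 lower in all 3, with medians of 0.16, -0.12 and -0.38 (as deposited -0.35, 0.27 and -1.39). SUZ12, a core subunit, differed by -0.13, -0.15 and -0.04, RBBP7 by 0.16, -0.03 and -0.45, RBBP4 by 0.63, -0.85 and 0.34, and PHF1, an accessory subunit, by 0.23, -0.65 and 0.93.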

How the data were processed

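Total RNA was hybridized to 4 Affymetrix U133 Plus 2.0 arrays. Each array has 1 deposited linear intensity per probe set. The study names dChip for its analysis, and what computed the deposited intensities is not stated in the sources read here. IBC-I, IBC-II and IBC-III were matched to the labels by clone number. Intensities of 0 were set to 0.1, log2 values were quantile normalized and values under 16 raised to 16. With 62 control probe sets left out, 27307 passed a filter on mean log2 (the median or more) and were tested. Genes came from the platform annotation (41097 probe sets with 1 gene, 1801 with several, 11777 unnamed here). Of the first, 41043 were matched by gene identifier to RefSeq symbols.

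limma 3.58.1 (R 4.3.3) was fitted to both groups with 2 residual degrees of freedom, on the assumption that pLKO, with 1 array, would vary as the shRNA arrays do. The 3-fold rule in each comparison follows the study's methods. Scripts were tested on simulated data. Named were all member probe sets, the 4 tested genes of each list with the highest mean log2 value, and the 3 nearest probe sets of each member's brightest tested one. The members and lists were chosen with earlier results of these data known. Alternatives were the scaling, floor, filter, fold rule, test and each shRNA array left out. Before normalization, the share of probe sets under the floor of 16 was 43.9% (IBC-I), 39.3% (IBC-II) and 55.1% (IBC-III), against 43.4% in pLKO, and the number of arrays limits the precision. Figures were drawn with matplotlib 3.10.9.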

Additional observations from a re-analysis of the deposited data

Results flagged for a closer look

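The 3' to 5' control ratios of IBC-III, 42.6 for ACTB and 13.1 for GAPDH, stood above those of pLKO, 5.29 and 1.09. These control probe sets entered no comparison.

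Of the 15 probe sets that list NEAT1, GAS5 or H19 together with another gene and were assigned to none, 7 were at least 3-fold higher in IBC-III than in pLKO after normalization, where 8.76% of all tested probe sets were. As deposited 1 of the 7 reached 3-fold (227062_at, 3.03-fold), and the others were between 1.31-fold and 2.21-fold higher. The log2 differences were 2.23 in 224565_at, 2.41 in 225239_at, 2.96 in 227062_at and 2.09 in 234989_at, which list NEAT1 with MIR612. They were 1.96 in 224841_x_at, 2.26 in 227517_s_at and 1.62 in 228238_at, which list GAS5 with 8 snoRNA genes. With 1 array a side these differences were not tested.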

How the results depend on the processing

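Of the 160 alternative values of the tested probe sets' mean differences, 151 moved by less than their SD over the hairpins and 9 by more, and 11 changed sign, 4 of them as deposited, 3 under median centring, 1 without IBC-II and 3 without IBC-III. Below pLKO each time were 1 of 18 members (as deposited), 2 of 21 (floor of 1) and 2 of 29 (no filter), against 0 of 18 in the main setting. The number of members tested differed, so these counts are not on 1 base. With no filter the 2 were the dim MEG3 227390_at and 242246_x_at, which the main filter left out. As deposited, 19.4% of all tested probe sets lay below pLKO each time, and no such share is given for the floor of 1 or no filter. Median centring left 4 higher in all 3, where 14% of all tested probe sets were. limma called 1 probe set with a floor of 64 and 1 with no filter, in both cases MALAT1 1558678_s_at (adjusted p 0.00278 and 0.0104, with 395 and 1327 probe sets called of 54613), whose shRNA values quantile normalization made identical. Over the other limma alternatives the count was 0. Leaving out 1 shRNA array gave 9 to 16 probe sets higher in the remaining comparisons, 0 to 1 lower, and 0 to 1 at least 3-fold higher. Fewer comparisons had to match in these settings, and shares over all tested probe sets are not given for them. The 16 higher came without IBC-II, as did the 1 past the fold rule, MALAT1 224559_at, and 1 was lower without IBC-I or without IBC-II. The MALAT1 median mean difference, 1.02, was 0.44 without IBC-III, 1.67 without IBC-II, 0.51 as deposited and 0.65 median centred. That of TUG1, 0.47, was -0.20 as deposited, -0.07 median centred 0.04 with a floor of 64 (6 probe sets) and 0.23 without IBC-III. The causes were not tested. No paired analysis was possible because the pLKO group has 1 array, so no replicate number could serve as a block. The methods' paired test sets all 3 shRNA arrays against that array. Signal over background limits GAS5, MEG3 and the dimmer TUG1 probe sets.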

Other observations

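The 2 probe sets that list H19 with MIR675 were lower than pLKO on every shRNA array, as deposited and after normalization. Both carry the _x mark and neither gene can be named from them. Among the 27307 tested, 20% (quantile normalized) and 19.4% (as deposited) also lay below pLKO each time. In 224646_x_at the intensity was 14.9 (IBC-I), 12 (IBC-II) and 1.4 (IBC-III), against 90.2 in pLKO, and all 3 shRNA values lay under the floor, so that the normalized signal was at least 4.59-fold lower in each. In 224997_x_at it was 37.9 (IBC-I), 36.8 (IBC-II) and 23.4 (IBC-III), against 67 in pLKO, with log2 differences of -0.54, -1.02 and -0.68.

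The probe sets that list NEAT1 with MIR612 differed among themselves. The highest in IBC-III, 227062_at, read 1128.5 (IBC-I), 649.8 (IBC-II) and 2918.1 (IBC-III), against 964.4 in pLKO, while 238320_at read 53.2 (IBC-I), 36.9 (IBC-II) and 28 (IBC-III), against 63.7 in pLKO. In IBC-II all 9 were below pLKO, with normalized log2 differences between -1.56 and -0.42, and in IBC-III 8 of 9 were above it. Of all tested probe sets 47.7% were lower in IBC-II and 49.1% higher in IBC-III after normalization. As deposited, 224566_at and 239269_at also lay below pLKO in IBC-III (-0.48 and -0.39 on log2). The 4 that list GAS5 with snoRNA genes were also below pLKO in IBC-II (between -1.04 and -0.49) and above it in IBC-III (between 1.52 and 2.26). With 224741_x_at, for example, the intensity was 169.4 (IBC-I), 295.8 (IBC-II) and 483.4 (IBC-III), against 469.9 in pLKO, so its position in IBC-III against the control rests mostly on the scaling between arrays.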
